A study of Homo sapiens with 6 samples.

Results

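The 10 genes described here carry iron into the cell, store it, release it or sense it, and their mRNAs were measured after 24 h of low oxygen: TFRC, STEAP3 and SLC11A2 (uptake), FTH1, FTL and NCOA4 (storage), SLC40A1 (export), and IREB2, ACO1 and FBXL5 (regulation). They were chosen by name, and the RPKM values (read numbers divided by transcript length and sequencing depth) of all their annotated transcripts were summed per gene, which gave 10 members of 26425 genes with a value. The cells were SUM1315, an established human triple-negative breast cancer line of wild-type genotype per the labels. The groups were 3 libraries from cells kept at 1% oxygen for 24 h in a modular chamber (hypoxia) and 3 libraries from cells kept at 21% oxygen (normoxia). Both groups were grown at 37 °C in 5% CO2, in medium with serum, insulin and EGF. The labels do not say that replicates came from separate cultures, so p-values reflect no more than how these libraries varied, and that variation may be technical.

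Cells take up iron mainly as transferrin bound to the transferrin receptor. Iron freed in the endosome is reduced and carried into the cytosol, where the excess is stored in ferritin, and ferroportin is the only known route of export. The balance is set largely after transcription: iron regulatory proteins 1 and 2, made by ACO1 and IREB2, bind a short RNA hairpin called the iron-responsive element when iron is scarce. Bound in a 5′ untranslated region (UTR), as in ferritin and ferroportin mRNA, they block translation. Bound in the 3′ UTR of TFRC, they protect the mRNA from decay. Messenger levels, which are all that was measured here, therefore show only a portion of that control.

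The element sequences are shown first because this control acts through them. GENCODE 29 transcripts (GRCh38) were searched on the transcript strand for a C, any 5 bases, the loop CAGTG followed by A, C or T, and 5 further bases, where the 5 bases on either side of the loop pair with each other (G with T allowed). With 5 of 5 pairs required, 7 sites in 4 members matched, and capitals mark the loop of 6 bases. The ferritin and ferroportin sites lie in 5′ UTRs, at chr11:61967574-61967602 (minus strand), chr19:48965335-48965363 (plus) and chr2:189580661-189580689 (minus).
FTH1: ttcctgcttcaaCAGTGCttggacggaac
FTL: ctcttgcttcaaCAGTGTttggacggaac
SLC40A1: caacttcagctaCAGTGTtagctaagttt
The 4 TFRC sites lie in its 3′ UTR on the minus strand, at chr3:196050979-196051007, chr3:196050575-196050603, chr3:196050510-196050538 and chr3:196050463-196050491, listed in the order of transcription.
TFRC a: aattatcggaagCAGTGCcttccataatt
TFRC b: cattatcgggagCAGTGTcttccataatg
TFRC c: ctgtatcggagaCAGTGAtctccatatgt
TFRC d: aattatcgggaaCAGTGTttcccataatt
The FTH1 and FTL sites shared 26 of 29 bases, and the TFRC sites shared 18 to 25 of 29 with each other. A match at this strictness was found in 194 of 16221 coding genes (1.2%).

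A looser search for at least 4 of 5 pairs was added after SLC11A2, a known carrier of a 3′ element in some of its mRNAs, missed the stricter one. It matched 8.66% of coding genes, and among the members it added SLC11A2 (chr12:50988269-50988297, minus strand, 8 transcripts), ACO1 and IREB2. The SLC11A2 site is printed because it separates the transcripts of that gene described further on.
SLC11A2: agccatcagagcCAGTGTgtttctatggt
A match is a description of the letters and not evidence of binding. The search can also miss elements, as the stricter one did for SLC11A2, so the sites printed may not be all.

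The labels and the cell line were checked against marker genes. All 8 tested genes of a list of 10 classical hypoxia genes were raised, among them SLC2A1, the glucose transporter GLUT1 (46.9 ± 6.56 RPKM in hypoxia and 5.49 ± 0.220 in normoxia, SD, n = 3 each), and VEGFA (22.2 ± 2.26 and 10.1 ± 0.428). Among all tested genes 12.4% were raised. CA9 and EGLN3 were not tested, because they did not pass the filter on low values (means of 0.0360 and 0.328 RPKM in hypoxia). ANKRD37 passed that filter only through its hypoxia libraries (9.95 ± 1.06 RPKM, and 1.02 ± 0.210 in normoxia). Of 12 breast line markers, 10, among them all keratins listed, EPCAM, CDH1 and the hormone receptors ESR1 and PGR, did not reach 1 RPKM in any library. VIM, a mesenchymal filament gene, stood at 6742 RPKM in hypoxia and 4840 in normoxia, and ERBB2 at 22.1 and 21.6. The highest value among those 10 was 0.209 RPKM, so the keratins listed, EPCAM and CDH1 did not mark the cells as epithelial. The list did not by itself identify the cell line. The 12 markers of other cell types summed to 435 to 489 RPKM in hypoxia and 292 to 330 in normoxia, carried by COL1A1 and CD68. PDGFRA averaged 2.20 RPKM in hypoxia and 3.75 in normoxia, while 9 of the 12, including PTPRC, PECAM1 and ALB, did not reach 1 RPKM. The part of these markers in the results was not tested. Depth recovered from the values, in units of 1e6 reads per library, was 43.9 to 50.6 in hypoxia and 50.3 to 50.7 in normoxia, and log2 values of replicates correlated across genes at 0.993 to 0.995 in hypoxia and 0.997 to 0.998 in normoxia.

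In hypoxia the mRNA of the transferrin receptor fell to 0.748 of its normoxic level, while that of the endosomal reductase STEAP3 rose to 1.47 times the normoxic level. The mRNA of the light ferritin subunit FTL was raised by a smaller factor of 1.24. The mRNAs of both iron regulatory proteins were lowered, IREB2 to 0.737 and ACO1 to 0.806 of normoxia. Of the 9 members that passed the filter (above 1 RPKM in 3 or more libraries), 2 were raised (22.2%) and 4 were lowered (44.4%) by limma with Benjamini-Hochberg adjustment over all 11889 tested genes (adjusted p under 0.05). Among all tested genes 12.4% were raised and 24.4% were lowered, 36.8% in either direction. The median log2 fold change was -0.10 over the 9 members and -0.08 over all tested genes. The 2 groups did not overlap for 6 of the 9 members, 2 higher and 4 lower in hypoxia, while of all tested genes 16.4% were higher without overlap and 35.5% lower (51.9% together). The counts were not tested against that background.

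The split of calls depended on the scaling between libraries. Over all tested genes 66.2% of calls were lowered as deposited, 39.0% with median-of-ratios scaling, 47.7% with upper-quartile scaling and 78.2% with equal sums. No scaling moved the median of all genes by more than 0.080 on the log2 scale, and the directions given below for TFRC, STEAP3, FTL, FTH1, SLC11A2, IREB2 and ACO1 were the same under each.

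**Figure D1:**
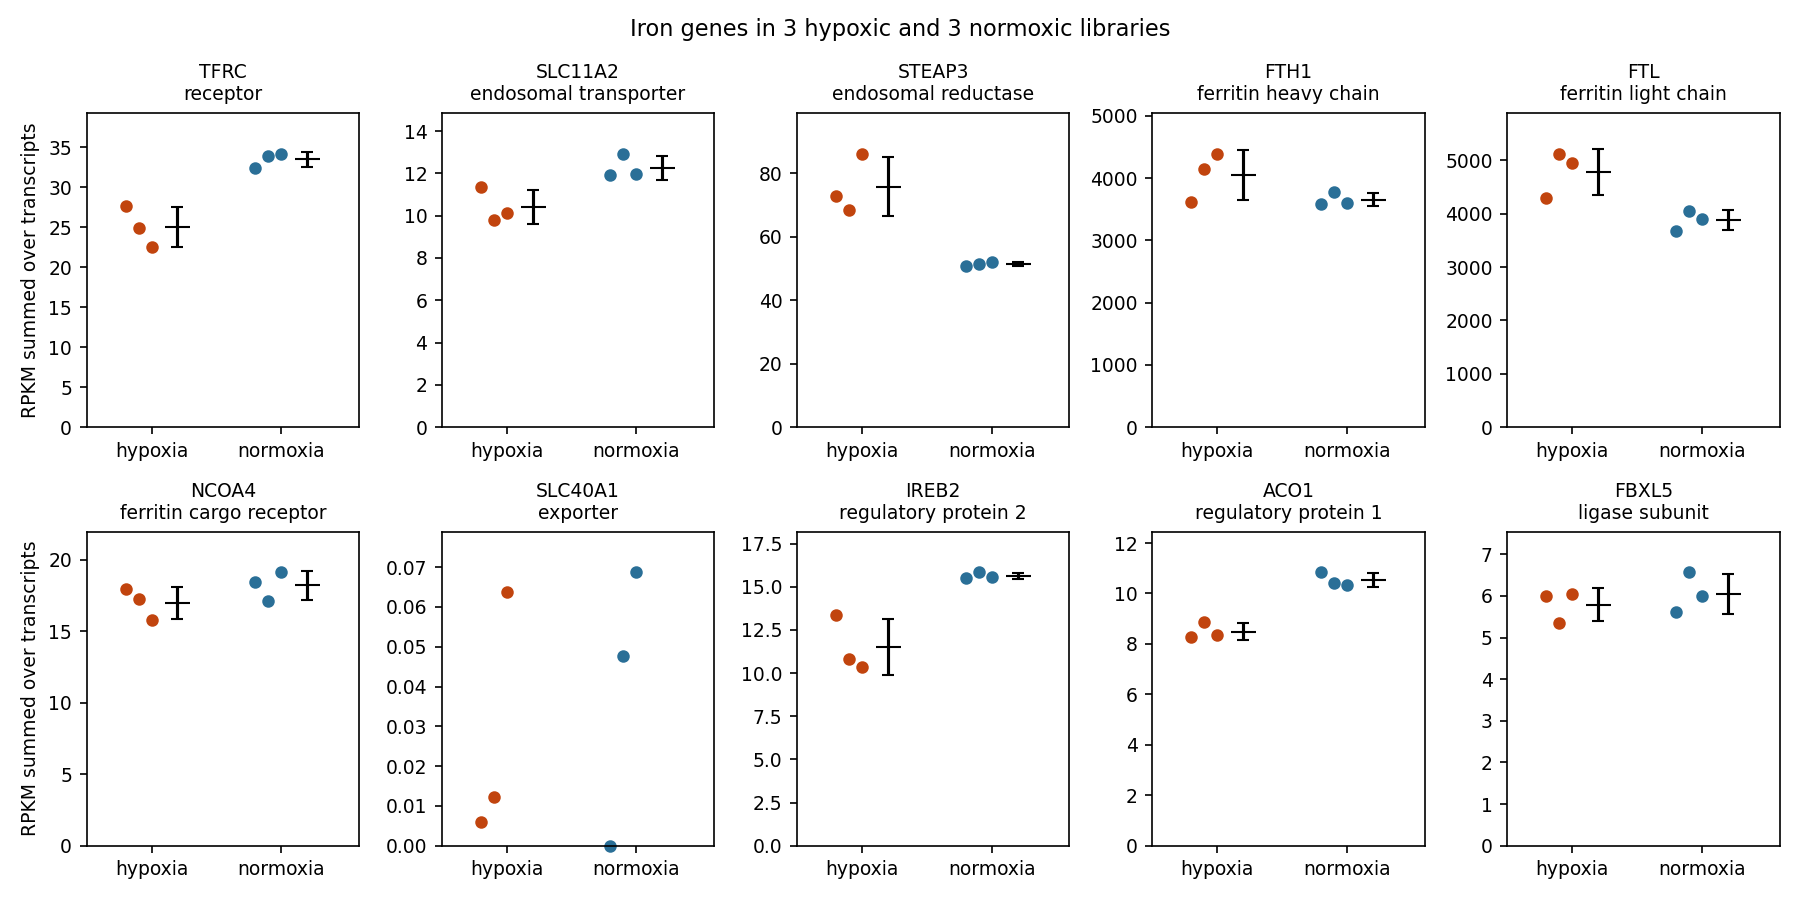
Level of each of the 10 members in RPKM (vertical axes, each from 0) in the 3 hypoxia libraries and, right of them, the 3 normoxia libraries; points are libraries, and the bar with whiskers beside them is the mean with its SD, left out for SLC40A1. TFRC, SLC11A2, IREB2 and ACO1 lie lower in every hypoxia library, STEAP3 and FTL lie higher in every one, and the other groups overlap.

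On the uptake side, TFRC (ENSG00000072274), the receptor for iron-loaded transferrin, maps to chr3:196027183-196082189 on the minus strand. It had 27.6, 25.0 and 22.6 RPKM in hypoxia libraries 1, 2 and 3, against 32.3, 33.9 and 34.2 RPKM in normoxia libraries 1, 2 and 3. Every hypoxia library lay below every normoxia library, and the spread was wider in hypoxia, with a coefficient of variation of 10.1% against 2.93% in normoxia. The log2 fold change was -0.41 (SE 0.08, 95% interval -0.57 to -0.24, adjusted p = 0.00243, limma), and it passed the threshold under all 17 alternatives tried. Its size did depend on the processing: with trends on GC content and length removed in each library it was -0.19 (adjusted p = 0.0080).

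STEAP3 (ENSG00000115107, chr2:119223831-119265652, plus strand) reduces ferric to ferrous iron in the endosome, the step between release from transferrin and transport into the cytosol. It had 72.9, 68.5 and 86.1 RPKM in hypoxia libraries and 50.7, 51.6 and 52.0 RPKM in normoxia libraries. The lowest hypoxia library was above the highest normoxia library. The log2 fold change was 0.54 (SE 0.08, adjusted p = 5.98e-04, limma), the greatest in size among the 9 tested members, and it passed under all 17 alternatives with values of 0.45 to 0.64. TFRC and STEAP3, which act in the same endosome, were thus called in opposite directions.

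SLC11A2 (ENSG00000110911, chr12:50979401-51028566, minus strand), known as DMT1, carries ferrous iron across the endosomal membrane. Its level was 11.3, 9.82 and 10.1 RPKM in hypoxia libraries, against 11.9, 12.9 and 11.9 RPKM in normoxia libraries. The groups did not overlap, but the gap between the nearest libraries was small. The log2 fold change of -0.22 (SE 0.08, adjusted p = 0.0451, limma) missed the threshold under 12 of 17 alternatives, among them leaving out any one normoxia library, hypoxia library 2 or hypoxia library 3 (adjusted p = 0.0782 to 0.175). With the GC and length trends removed it was -0.10.

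**Figure D2:**
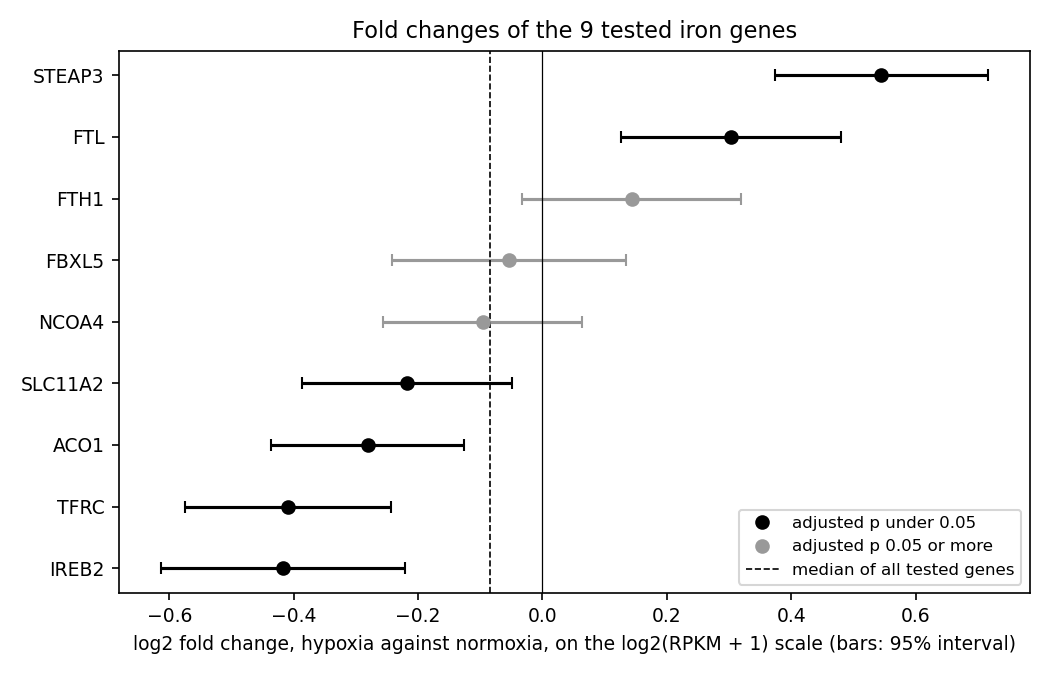
log2 fold change of each of the 9 tested members, hypoxia against normoxia, fitted to log2(RPKM + 1) (horizontal axis), with 95% intervals as whiskers and the colour giving the call. STEAP3 (0.54) and FTL (0.30) lie to the right of 0, IREB2 (-0.42), TFRC (-0.41), ACO1 (-0.28) and SLC11A2 (-0.22) lie to the left, and the intervals of FTH1, NCOA4 and FBXL5 include 0.

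Ferritin mRNA was the most abundant among the members. FTL, the light subunit, which helps iron mineralise in the ferritin shell, and FTH1, the heavy subunit with the ferroxidase centre, held ranks 3 and 6 in mean RPKM among all tested genes. FTL (ENSG00000087086, chr19:48965301-48966878, plus strand) had 4304, 5122 and 4946 RPKM in hypoxia libraries, against 3679, 4055 and 3897 RPKM in normoxia libraries. Every hypoxia library was above every normoxia library. Its log2 fold change was 0.30 (SE 0.08, adjusted p = 0.0144, limma). The call was lost without hypoxia library 3 (0.28, adjusted p = 0.0503), without normoxia library 1 (0.26, adjusted p = 0.0645) and with no filter on low values (adjusted p = 0.158).

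FTH1 (ENSG00000167996, chr11:61959718-61967660, minus strand) had 3609, 4147 and 4386 RPKM in hypoxia libraries, against 3577, 3779 and 3603 RPKM in normoxia libraries. Hypoxia libraries 2 and 3 were above all normoxia libraries, and hypoxia library 1 lay within their range. The log2 fold change of 0.14 (SE 0.08, 95% interval -0.03 to 0.32, adjusted p = 0.175, limma) did not pass. It passed without hypoxia library 1 (0.22, adjusted p = 0.0131) and with median-of-ratios scaling (0.24, adjusted p = 0.0436). FTH1 has many processed copies in the genome, and reads can be split between them. The 13 FTH1 pseudogenes in the table summed to 2.49 to 3.98 RPKM per library, at most 0.107% of FTH1. BEST1 overlaps 1267 of the 2030 exonic bases of FTH1 on the opposite strand, and the library kit does not mark strand. BEST1 stood at or below 0.741 RPKM in every library. The pseudogene and BEST1 values come from the same assignment of reads as FTH1, and sharing of reads was not tested.

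NCOA4 (ENSG00000266412, chr10:46005088-46030714, minus strand) is the receptor that delivers ferritin to the autophagosome for breakdown. It had 17.9, 17.2 and 15.8 RPKM in hypoxia libraries and 18.4, 17.1 and 19.1 RPKM in normoxia libraries. The groups overlapped, and the log2 fold change was -0.10 (95% interval -0.26 to 0.06, adjusted p = 0.317, limma). The interval leaves room for a fall of the size seen for SLC11A2.

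SLC40A1 (ENSG00000138449, chr2:189560579-189583758, minus strand) encodes ferroportin, the iron exporter. It was close to 0 in these cells, at 0.00593, 0.0122 and 0.0639 RPKM in hypoxia libraries and 0, 0.0478 and 0.0687 RPKM in normoxia libraries. Those values stand for about 1.03, 2.07 and 5.12 reads in hypoxia and 0, 2.00 and 4.05 reads in normoxia. The gene did not pass the filter and was not tested, and a difference was not detectable at this depth.

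Among the regulators, IREB2 (ENSG00000136381, chr15:78437431-78501456, plus strand) encodes iron regulatory protein 2, which is degraded when iron and oxygen are ample. It had 13.4, 10.8 and 10.3 RPKM in hypoxia libraries, against 15.5, 15.8 and 15.5 RPKM in normoxia libraries. All hypoxia libraries were lower, and they spread far more than the normoxia libraries, with coefficients of variation of 14.1% and 1.11%. For IREB2 the log2 change came to -0.42 (SE 0.09, adjusted p = 0.00528, limma). It was -0.16 with the GC and length trends removed (adjusted p = 0.0371), and the call was lost with no filter on low values (adjusted p = 0.0596) and with the trends removed together with a replicate block (adjusted p = 0.0591).

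ACO1 (ENSG00000122729, chr9:32384603-32454769, plus strand) encodes iron regulatory protein 1, which is a cytosolic aconitase when it holds an iron-sulfur cluster and an RNA-binding protein when it does not. It had 8.26, 8.87 and 8.34 RPKM in hypoxia libraries, against 10.8, 10.4 and 10.3 RPKM in normoxia libraries. The groups were well separated, with SDs of 0.331 in hypoxia and 0.264 in normoxia. For ACO1 the log2 change came to -0.28 (SE 0.07, adjusted p = 0.0110, limma). The call was lost with median-of-ratios scaling (-0.20, adjusted p = 0.0567), without normoxia library 1 (-0.26, adjusted p = 0.0570) and with the GC and length trends removed (-0.16, adjusted p = 0.0794).

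FBXL5 (ENSG00000118564, chr4:15604539-15681679, minus strand) is the subunit of a ubiquitin ligase that marks the iron regulatory proteins for degradation, and its own stability depends on iron and oxygen. Its mRNA stood at 5.99, 5.34 and 6.04 RPKM in hypoxia libraries and 5.61, 6.56 and 5.99 RPKM in normoxia libraries. The groups overlapped, and the log2 fold change was -0.05 (95% interval -0.24 to 0.13, adjusted p = 0.644, limma), with a sign that turned under other scalings.

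Raised and lowered members differed in base composition. The 4 lowered members had transcripts of 39.6% (IREB2), 41.6% (TFRC), 45.8% (SLC11A2) and 47.6% (ACO1) GC, while the raised STEAP3 and FTL had 57.7% and 56.3%, and the median of tested genes was 50.5%. Of the members not called, FTH1 had 53.7%, FBXL5 44.2% and NCOA4 43.3%. TFRC and IREB2 also had long transcripts, 4922 and 5374 bases on average weighted by level, against a median of 2368 bases. With both trends removed per library, STEAP3 was at 0.51, FTL at 0.20, TFRC at -0.19 and IREB2 at -0.16, all still past the threshold, whereas SLC11A2 and ACO1 were not.

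The order of the members by mean level, per length, was the same in both groups: FTL, FTH1, STEAP3, TFRC, NCOA4, IREB2, SLC11A2, ACO1, FBXL5 and SLC40A1. The ranges of FTL and FTH1 over libraries overlapped in each group, although FTL was above FTH1 within each of the 6 libraries. IREB2 and SLC11A2 overlapped in hypoxia, at 10.3 to 13.4 and 9.82 to 11.3 RPKM, and did not overlap in normoxia. All other neighbours in the order were separate in both groups.

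Ratios within a library are free of the scaling between libraries, but not of trends on GC content and length. The ratios were not computed with those trends removed. In that setting the log2 fold changes were -0.19 for TFRC and 0.10 for FTH1. The log2 ratio of TFRC to FTH1, receptor against store, averaged -7.34 ± 0.288 in hypoxia and -6.77 ± 0.0429 in normoxia (SD, n = 3 each). It was lower in all 3 hypoxia libraries, by 0.57 (two-sided exact permutation test, p = 0.1, the smallest that 3 against 3 allows). The log2 ratio of FTH1 to FTL, which bears on the makeup of the ferritin shell, was -0.24 ± 0.0663 in hypoxia and -0.09 ± 0.0392 in normoxia, a difference of -0.16 with no overlap (exact permutation p = 0.1). The log2 ratio of IREB2 to ACO1 was 0.70, 0.29 and 0.31 in hypoxia libraries and 0.52, 0.61 and 0.59 in normoxia libraries. There hypoxia library 1 was the highest and the other hypoxia libraries the lowest, and the difference was -0.14 (exact permutation p = 0.4). The 3 p-values are not adjusted over the 3 ratios, and none could pass 0.05.

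The transcripts of the members were examined because some carry the element and some do not, although values for transcripts of 1 gene are estimates that divide shared reads. Of 99 member transcripts in the table, 28 passed the filter, 2 were raised and 1 was lowered by limma adjusted over 26790 transcripts, where 3.5% of all tested transcripts were raised and 3.22% lowered (6.72% in either direction). TFRC-201, which holds all 4 matched sites, made up 89.6% of TFRC in hypoxia and 90.5% in normoxia. It had 22.4 ± 2.66 RPKM in hypoxia and 30.3 ± 1.13 in normoxia (log2 fold change -0.42, adjusted p = 0.0414). That call was lost under 8 of 13 alternatives, among them median-of-ratios scaling (-0.34, adjusted p = 0.0804), leaving out hypoxia library 2 (adjusted p = 0.0514) and leaving out any one normoxia library (adjusted p = 0.117 to 0.147). The transcripts of TFRC with matched sites came to 95.2% of the gene in hypoxia and 96.6% in normoxia, with SDs of 1.94 and 1.33 points.

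STEAP3 was spread over 3 main coding transcripts, all with a higher mean in hypoxia. STEAP3-201 had 25.9 ± 2.16 RPKM in hypoxia and 18.5 ± 2.08 in normoxia (log2 fold change 0.47, adjusted p = 0.0373), a call lost under 8 of 13 alternatives, among them leaving out any library but hypoxia library 1 (adjusted p = 0.0601 to 0.140). STEAP3-203 had 16.1 ± 0.891 RPKM in hypoxia and 10.1 ± 0.826 in normoxia (log2 fold change 0.63, adjusted p = 0.00915), and its call was lost only with no filter on low values, of 13 alternatives (adjusted p = 0.0784). STEAP3-202, the most abundant, had 33.3 ± 8.88 and 22.6 ± 0.943 RPKM, and its log2 fold change of 0.51 did not pass (adjusted p = 0.111), though it did without hypoxia library 2 (0.70, adjusted p = 0.0257). Shares of the gene were taken from RPKM summed over the libraries of a group, with the SD over single libraries. They were 34.2% (SD 3.38) in hypoxia and 35.9% (SD 3.83) in normoxia for STEAP3-201. For STEAP3-203 they were 21.2% (SD 3.61) and 19.6% (SD 1.74), and for STEAP3-202 43.9% (SD 6.62) and 43.9% (SD 1.88). The STEAP3-202 share ranged from 36.3% to 49.4% over the hypoxia libraries.

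For SLC11A2, the 8 transcripts with the looser element summed to 4.65 ± 0.459 RPKM in hypoxia and 5.49 ± 0.246 in normoxia, and the 23 without it to 5.77 ± 0.448 and 6.78 ± 0.323. Transcripts with the element made up 44.6% ± 2.10 of the gene in hypoxia and 44.7% ± 0.404 in normoxia, and both kinds had a mean 0.85 times that of normoxia. FTH1 was carried by FTH1-201, at 2482 ± 217 RPKM in hypoxia and 2270 ± 48.2 in normoxia, and FTH1-206, at 1449 ± 379 and 1257 ± 137. Nearly all of it, 99.96% in each group, lay in transcripts with the 5′ element. Neither passed the test, with adjusted p of 0.298 for FTH1-201 and 0.539 for FTH1-206. IREB2-201 accounted for 78.1% of IREB2 in hypoxia and 76.2% in normoxia, and ACO1-202 for 52.5% of ACO1 in hypoxia and 55.9% in normoxia. Their log2 fold changes were -0.38 (adjusted p = 0.0858) and -0.33 (adjusted p = 0.0712). FBXL5 was split over several low transcripts. In hypoxia the highest mean was that of FBXL5-205, which has a retained intron (1.29 ± 0.492 RPKM, and 1.13 ± 0.471 in normoxia). In normoxia the highest was the coding FBXL5-201 (1.41 ± 0.307 RPKM, and 0.940 ± 0.465 in hypoxia).

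**Figure D3:**
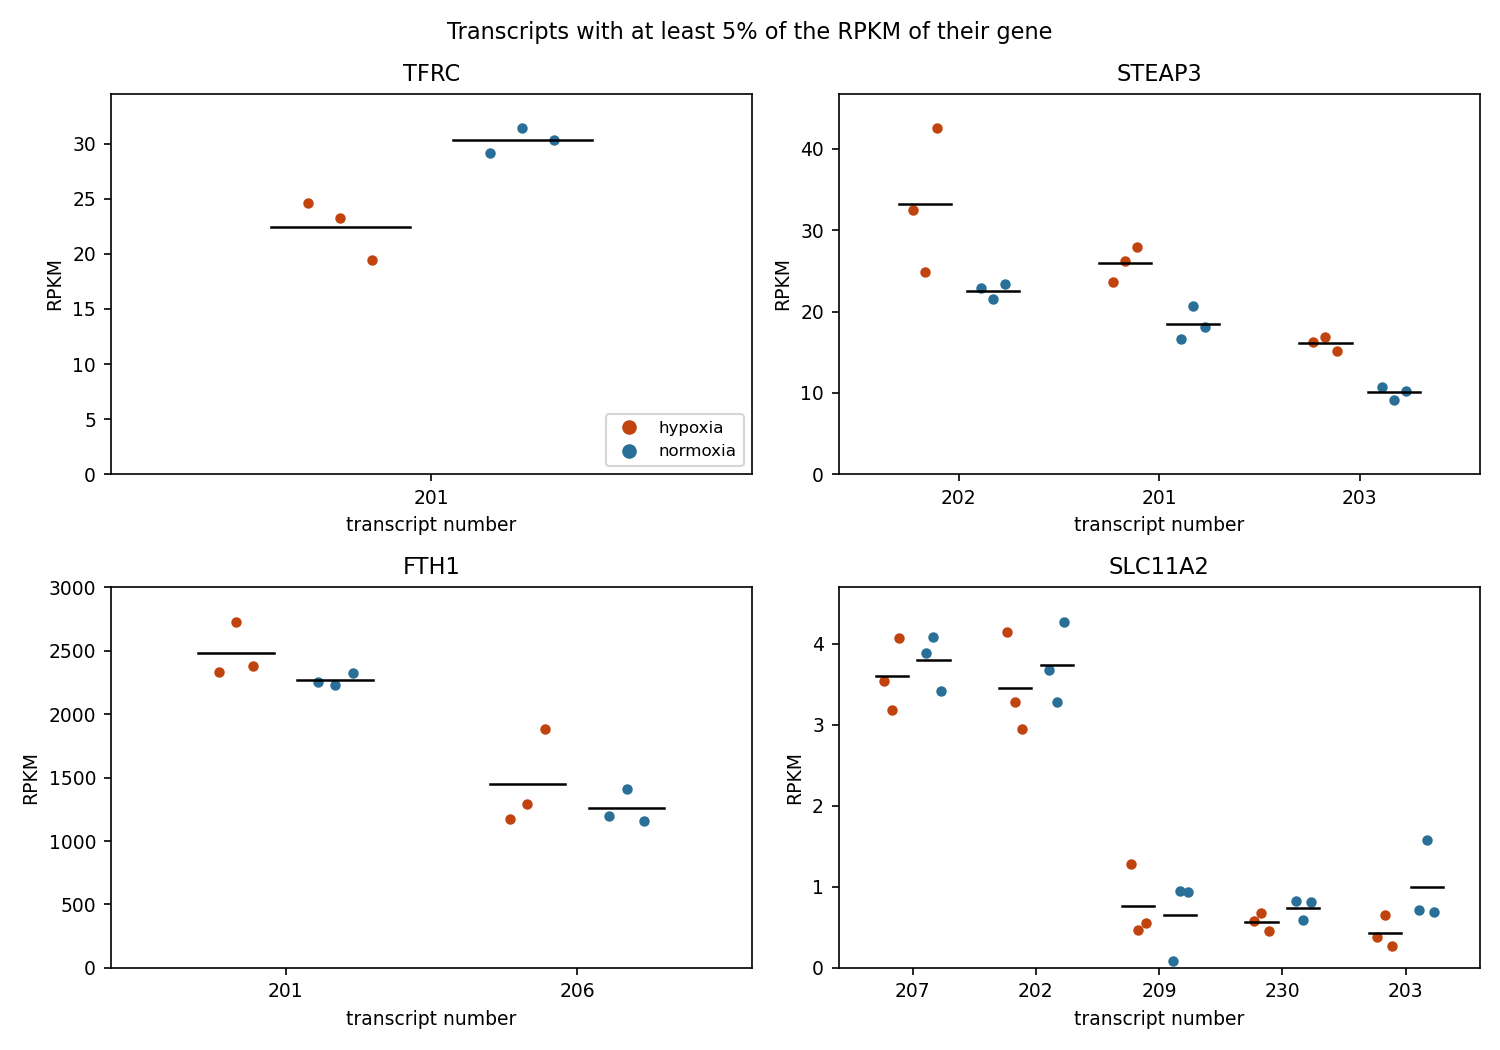
Level in RPKM of the main transcripts of 4 members (vertical axes, from 0) in the 3 hypoxia libraries and, right of them, the 3 normoxia libraries; points are libraries and bars are means. TFRC-201 is lower in every hypoxia library, and STEAP3-201 and STEAP3-203 are higher in every one.

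Promoters were searched for ACGTG, a form of the core letters recognised by hypoxia-inducible factors. The search covered either strand in RefSeq windows of 300 bases (250 before to 50 after the start, GRCh38.p14). The members TFRC, FTL and FBXL5, 3 of 9 with an entry, held it, against 24.9% of all genes in the table. It lay 88 bases before the RefSeq start of TFRC (chr3:196082162-196082190, minus strand), and in FTL on the opposite strand, read as CACGT, 11 bases before the RefSeq start (chr19:48965286-48965314, plus strand). The outermost GENCODE transcripts of both genes begin further upstream, so the TFRC match lies inside the gene bounds given above and the FTL match spans the bound. In FBXL5 both readings overlap in 1 palindrome, CACGTG. The windows of TFRC and FTL are printed, with the match in capitals, because these genes were called in opposite directions.
TFRC promoter: cctcgcgagcgtACGTGcctcaggaagtg
FTL promoter: agccgccctagcCACGTcccctcgcagtt
The other members with an entry, STEAP3 among them, had no match in their windows. A match is a description of the letters and not evidence of binding. The search can also miss sites, because it took only ACGTG and only these windows. A part of these sites in the changes was not tested.

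The genes whose profiles over the 6 libraries were most like that of TFRC, by the root mean square difference of centred log2(RPKM + 1) values, were SLC30A6, NBN, PIGK, AP3M1 and RASA1, at 0.014 to 0.022. The closest, SLC30A6, had 9.69 ± 0.943 RPKM in hypoxia and 13.01 ± 0.279 in normoxia. Those most like FTH1 were PFN1, ECH1, ACYP2, OXLD1 and SNAPC2, at 0.012 to 0.023. PFN1 had 2020 ± 177 RPKM in hypoxia and 1818 ± 45.0 in normoxia.

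Around the members, 8 lists of other iron genes held 108 genes, of which 104 had a value and 91 were tested. Of these 8 were raised (8.79%) and 28 were lowered (30.8%), beside 12.4% and 24.4% of all tested genes, and their median log2 fold change was -0.12, beside -0.08. The balance turned with the scaling: 11 were raised and 9 lowered with median-of-ratios scaling, 10 and 14 with the upper quartile, and 4 and 42 with equal sums. Over all tested genes it turned too, with 2092 raised and 1338 lowered, 1819 and 1661, and 1175 and 4217 under the same scalings. Most shifts were small, and 4 genes stood out by a rise of more than 0.5 on the log2 scale: HMOX1, ABCB6, TFR2 and SLC25A37. All 4 passed under every alternative that tested them.

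**Figure D4:**
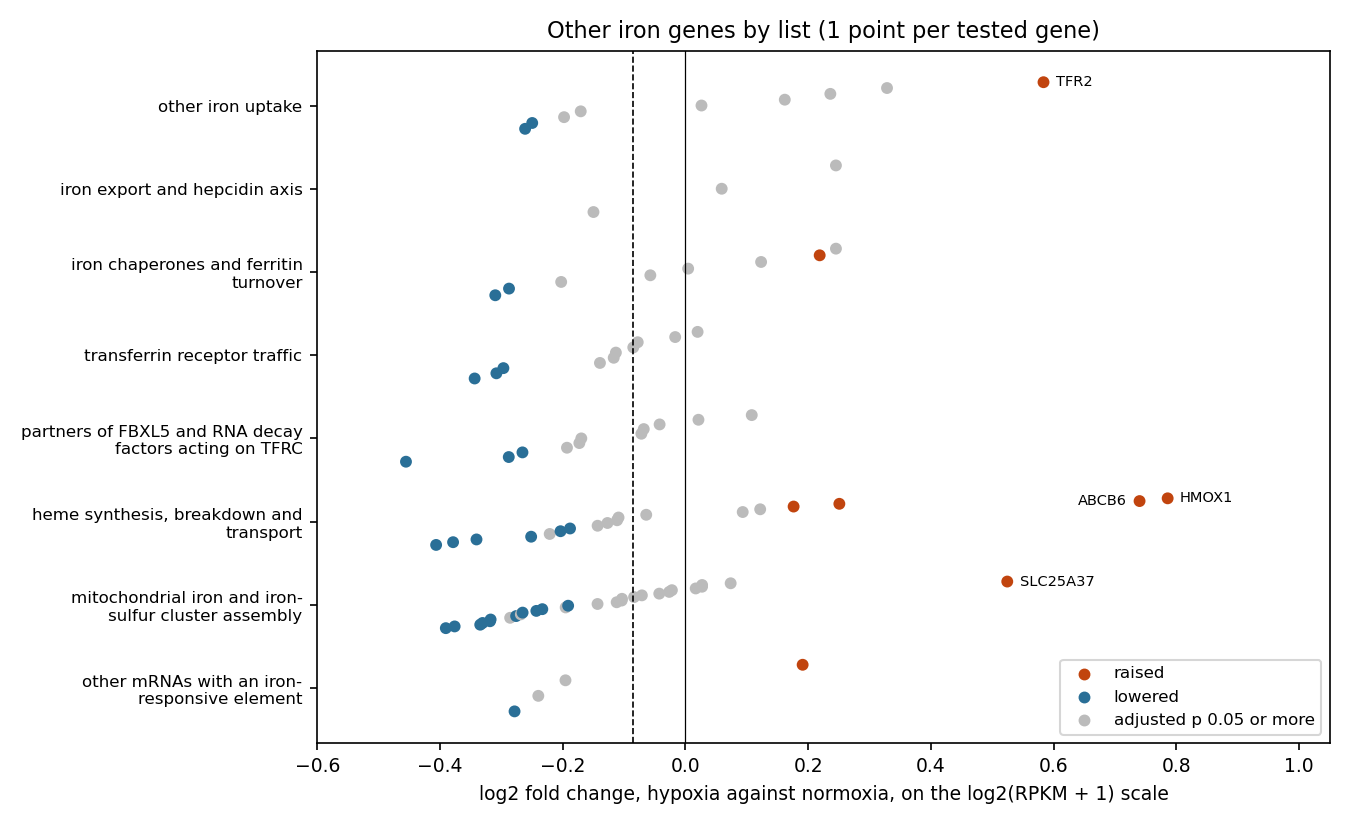
log2 fold change, hypoxia against normoxia, fitted to log2(RPKM + 1) (horizontal axis) of the 91 tested genes of the 8 other iron lists (rows), 1 point per gene, coloured by call; the dashed line is the median of all tested genes (-0.08). HMOX1, ABCB6, TFR2 and SLC25A37 lie beyond 0.5, and the lowered genes lie between -0.46 and -0.19.

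In the heme list 4 of 18 tested genes were raised (22.2%) and 6 were lowered (33.3%), beside 12.4% and 24.4% of all tested genes. HMOX1, which opens the heme ring and frees its iron, averaged 470 ± 33.2 RPKM in hypoxia and 272 ± 3.29 in normoxia (log2 fold change 0.79, SE 0.06, adjusted p = 7.26e-06, limma). ABCB6, a porphyrin transporter, averaged 12.04 ± 0.620 RPKM in hypoxia and 6.80 ± 0.348 in normoxia (0.74, adjusted p = 5.62e-05). PPOX, an enzyme late in heme synthesis, was raised by 0.25. ALAS1, the first and rate-limiting enzyme of heme synthesis, averaged 38.0 ± 0.300 RPKM in hypoxia and 49.8 ± 1.81 in normoxia (-0.38, adjusted p = 7.63e-04). The mitochondrial transporter ABCB10 (-0.41) and the heme exporter FLVCR1 (-0.34) were also lowered. HMOX2, the other heme oxygenase, averaged 42.9 ± 3.27 RPKM in hypoxia and 46.4 ± 0.756 in normoxia and was not called (-0.11, adjusted p = 0.200).

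Mitochondrial iron handling and iron-sulfur cluster assembly was the longest list, with 1 raised and 11 lowered of 28 tested (median -0.17). These were 3.57% raised and 39.3% lowered, beside 12.4% and 24.4% of all tested genes. The raised gene, SLC25A37 or mitoferrin 1, brings iron into mitochondria and averaged 86.3 ± 10.7 RPKM in hypoxia and 59.5 ± 4.11 in normoxia (0.52, adjusted p = 0.00147, limma). The lowered genes were led by CISD1, an iron-sulfur protein of the outer membrane (-0.39), BOLA3, a late assembly factor (-0.38), and FDX1, the electron donor ferredoxin (-0.33). ISCU, the assembly scaffold, was lowered, with a log2 change of -0.23. With the GC and length trends removed CISD1 was at -0.18 and FDX1 at -0.15, both then past the threshold no longer, while BOLA3 was at -0.43.

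Of 9 other uptake genes tested, 1 was raised (11.1%) and 2 were lowered (22.2%), beside 12.4% and 24.4% of all tested genes. TFR2, the second transferrin receptor, whose mRNA is known chiefly from liver and erythroid cells, averaged 3.82 ± 0.697 RPKM in hypoxia and 2.20 ± 0.164 in normoxia (0.58, adjusted p = 0.00286, limma). SLC39A14, a carrier of iron outside transferrin, averaged 58.6 ± 5.32 RPKM in hypoxia and 70.3 ± 2.12 in normoxia (-0.26), and the ferrireductase STEAP2 had a log2 fold change of -0.25. The STEAP2 call was lost without any one normoxia library, hypoxia library 2 or hypoxia library 3, and it was -0.01 with the GC and length trends removed.

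In the export and hepcidin list of 10 genes only 3 were tested. None of them was called by limma, beside 36.8% of all tested genes called in either direction. ERFE had a log2 fold change of 0.25 (adjusted p = 0.108), NEO1 0.06 (0.520) and RNF217 -0.15 (0.228). HAMP, the gene for hepcidin, and the ferroxidases CP and HEPH stayed far below 1 RPKM in both groups, as SLC40A1 did. In the list of transferrin receptor traffic 3 of 10 were lowered (30%) and none was raised, beside 24.4% and 12.4% of all tested genes. CLTC, the clathrin heavy chain, averaged 101 ± 10.7 RPKM in hypoxia and 128 ± 4.56 in normoxia (-0.34), and EXOC6 and MCOLN1 were at -0.31 and -0.30. The EXOC6 value was -0.05 with the GC and length trends removed.

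Among partners of FBXL5 and RNA decay factors that act on TFRC, 3 of 11 were lowered (27.3%) and none was raised. Of all tested genes 24.4% were lowered and 12.4% raised. CUL1, the scaffold of the ligase that FBXL5 serves, averaged 22.1 ± 4.75 RPKM in hypoxia and 30.2 ± 2.05 in normoxia (-0.46, adjusted p = 0.0183, limma). RC3H1 and RC3H2, the Roquin proteins that promote decay of target mRNAs, were at -0.29 and -0.27, with both calls lost under 10 alternatives each. In the list of iron chaperones and ferritin turnover, 1 of 8 was raised (12.5%) and 2 were lowered (25%), near the shares of all tested genes. PCBP4 was raised (0.22). GLRX3 (-0.31), whose groups overlapped, and HERC2 (-0.29), which has near-identical copies that may share its reads, were lowered. Among other mRNAs known to carry an iron-responsive element, EPAS1, the gene for HIF-2 alpha, averaged 14.9 ± 0.226 RPKM in hypoxia and 12.9 ± 0.497 in normoxia (0.19, adjusted p = 0.0412), and its call was lost when any one library was left out.

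Many of the smaller calls among these other iron genes were lost when a single library was left out or the GC and length trends were removed. Those of SLC39A14 and MCOLN1 were lost without normoxia library 2 (adjusted p = 0.0678 and 0.0657), and that of FDX1 without normoxia library 3 (0.0541). The calls of HERC2 and FLVCR1 were lost without normoxia library 1 or 2 (0.0548 to 0.0879), of CUL1 without normoxia library 2 or 3 (0.0576 and 0.0604), of PPOX without normoxia library 1 or 3 (0.0898 and 0.0894), and of PCBP4 without any one normoxia library (0.0574 to 0.0946). GLRX3 lost its call without hypoxia library 1 or 3 or normoxia library 2 or 3 (0.0776 to 0.129). EXOC6, RC3H1 and RC3H2 lost theirs, as STEAP2 did, without any library but hypoxia library 1 (0.0526 to 0.140 over the 4 genes). Without each library in turn EPAS1 had adjusted p of 0.0502 to 0.173. With the GC and length trends removed, CLTC was at -0.15, ABCB10 at -0.25 and PCBP4 at 0.12, still past the threshold, while SLC39A14 (-0.14), FLVCR1 (-0.14), HERC2 (-0.18), GLRX3 (-0.17), RC3H1 (-0.08) and RC3H2 (-0.12) were not.

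**Figure D5:**
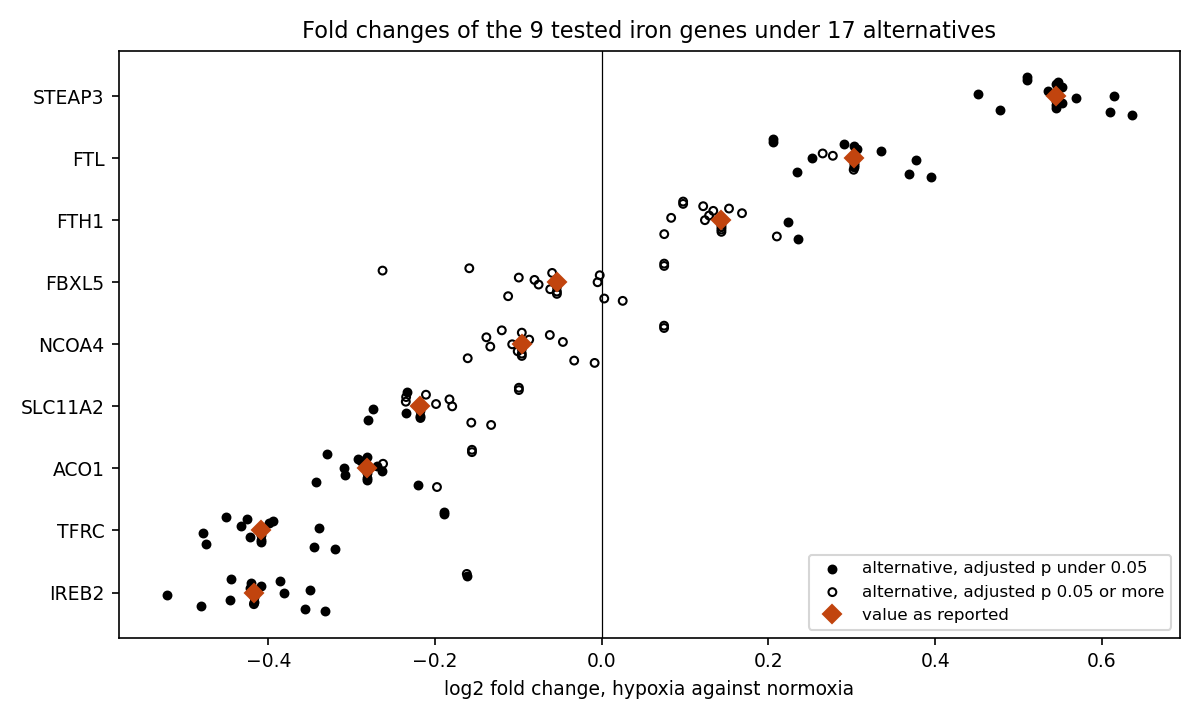
log2 fold change of the 9 tested members, hypoxia against normoxia (horizontal axis), as reported (diamonds) and under each of 17 alternatives (circles, filled where the adjusted p is under 0.05). STEAP3 and FTL stay right of 0 and TFRC, IREB2, ACO1 and SLC11A2 stay left of it under all of them, and FBXL5 and NCOA4 fall on both sides.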

How the data were processed

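Per the labels' protocols, RNA was purified on spin columns and 500 ng per sample was made into NEBNext Ultra RNA libraries, a kit that does not mark strand. The submitters' processing notes name Trimmomatic, HISAT2, SAMtools and Partek, with builds GRCh38 and hg38. No source used here gives versions, the annotation release or the counting settings. The authors deposited RPKM per Ensembl transcript for 6 libraries. No header names that unit, so it was inferred from the numbers: times transcript length, 79.4% to 80.2% of low values fell within 0.1 of a whole number of steps. The step of each library was the one that gave the largest share. Even steps show division by length and by a constant per library. That this constant is the depth was assumed, and the depths and read numbers above rest on it.

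Of 165956 transcripts, 140023 (84.4%) matched GENCODE 29, and unmatched ones held 3.43% to 3.68% of RPKM. RPKM was summed per gene. Genes above 1 RPKM in at least 3 libraries were tested with limma 3.58.1 (R 4.3.3, mean-variance trend) on log2(RPKM + 1), which understates changes of low genes. P-values were adjusted by Benjamini-Hochberg over all tested genes, or over all tested transcripts, with a threshold of 0.05. The scripts were tested on simulated data. Exact permutation tests were two-sided. RPKM carries no counting interval, and reads without molecular identifiers are not independent molecules.

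Members and lists were chosen with earlier results of these data known. Genes of the other lists were named by rule: up to 3 most raised and 3 most lowered of those past the threshold in each list. A gene that this rule names is not reported here. ISCU, ANKRD37 and the genes given as untested or uncalled were named after their values were seen. Alternatives were other scalings, filters, a pseudocount of 0.1, protein-coding transcripts only, limma-voom on estimated reads, removal of GC and length trends (loess per library), a replicate block, and each library left out. Promoters are RefSeq sequences.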

Additional observations from a re-analysis of the deposited data

How the results depend on the processing

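Of the 4 lowered members, 2 were called with median-of-ratios scaling, 2 when low values were not filtered and 2 with GC and length trends removed. Leaving out 1 library gave 2 to 4 lowered and 1 to 3 raised members. Raised members numbered 1 with no filter, without hypoxia library 3 and without normoxia library 1. Of the other iron genes, where 28 were lowered in the main setting, 9 were lowered with median-of-ratios scaling, 14 with upper-quartile scaling, 11 when unfiltered and 42 with equal sums. Raised ones, 8 in the main setting, numbered 11, 10, 5 and 4 under these settings, so that with median-of-ratios scaling they outnumbered the lowered. Leaving out 1 library gave 10 (without normoxia library 2) to 28 lowered and 4 (without normoxia library 3) to 8 raised. All tested genes moved too, from 1479 raised and 2900 lowered in the main setting. With median-of-ratios scaling 2092 were raised and 1338 lowered, with the upper quartile 1819 and 1661. Unfiltered they numbered 1069 and 1367, with equal sums 1175 and 4217, and with GC and length trends removed 1777 and 2612. Leaving out 1 library gave 1027 to 1519 raised and 1521 to 2852 lowered. Counts over all transcripts under these settings are not given. Of member transcripts, 0 were lowered under median-of-ratios or upper-quartile scaling or when unfiltered, and 2 with equal sums or a filter at 5 RPKM. Raised ones numbered 1 when scaled to the upper quartile and 0 with no filter. Leaving out 1 library gave 0 to 1 lowered and 1 to 4 raised. The cause of these shifts was not tested.

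Values that changed sign, all of features not called, were 0.075 for NCOA4 and for FBXL5 with GC and length trends removed (with and without the replicate block), 0.025 for FBXL5 with median-of-ratios scaling and 0.0030 with the upper quartile. With equal sums FBXL5-212 was -0.021, and with median-of-ratios scaling SLC11A2-207 was 0.0019. Leaving out 1 library gave ranges of -0.089 to 0.30 for FBXL5-205, -0.085 to 0.13 for FBXL5-212, -0.35 to 0.23 for FBXL5-202, -0.024 to 0.31 for FTH1-206 and -0.14 to 0.0024 for SLC11A2-207.

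No pairing of libraries by replicate number was visible: deviations from the group means correlated at 0.089, 0.030 and -0.227 for numbers 1, 2 and 3. With 3 libraries per group this cannot show that no pairing existed. With the replicate block SLC11A2 missed the threshold (adjusted p = 0.0769), and 0 member transcripts were lowered. With the block and GC and length trends removed together, 1 member, TFRC, was lowered, and IREB2, ACO1 and SLC11A2 missed the threshold (adjusted p = 0.0591, 0.110 and 0.254).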
